A study of Mus musculus with 8 samples.

Results

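The genes described here are the protein coding genes of the deposited expression table whose symbols carry the proteasome prefixes Psma to Psmg followed by a number. The rule found 44 genes among 12311 protein coding genes and 15378 genes in all, with 138 polyadenylation sites (APSs) of 56483. By role, 8 genes encode the alpha ring and 6 the constitutive beta ring of the core particle. Only Psmb10 represents the immune form of the beta ring. The regulatory particle is represented by 6 ATPases and 11 non-ATPase subunits. Of the rest, 5 are activators or the inhibitor of the core, 6 are assembly chaperones, and Psmc3ip, a meiotic recombination cofactor, shares the prefix without being a proteasome gene. Of 50 genes on the role lists, 6 were not analysed here (Psmb6, Psmb8, Psmb9, Psmb11, Psme2 and Psmg1).

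The proteasome degrades proteins that carry ubiquitin chains. Its core is a barrel of stacked rings: the outer alpha rings control entry, and the inner beta rings hold the catalytic sites of Psmb5, Psmb6 and Psmb7, which immune cells and interferon-treated cells can exchange for Psmb8, Psmb9 and Psmb10. The regulatory particle recognises ubiquitin, removes it and unfolds the substrate with a ring of ATPases. In skeletal muscle this machinery is the main route of myofibrillar protein loss during atrophy.

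Gastrocnemius muscle of AMPKα1 knockout (KO), AMPKα2 KO and wild-type (WT) control mice was profiled by WTTS-seq, a strand-specific method that counts reads at the 3′ ends of polyadenylated transcripts. Each model had 2 KO and 2 WT mice, each giving 1 library. AMPKα1 and AMPKα2 are the alternative catalytic subunits of AMP-activated protein kinase. In the KO lines the DNA for a part of the catalytic domain is deleted in the whole animal. All mice were adults, with KO mice of about 6 weeks (AMPKα1) or 8 weeks (AMPKα2) and WT mice of an age not given in the sources used here. The labels give C57BL/6 for all 8 mice, whereas the study's methods place AMPKα1 KO mice on 129S2/SvPas. The models therefore differ in age and perhaps in strain, and such differences cannot be told apart from the targeted gene. Reads at the 3′ end lie outside the deleted DNA and do not check the genotype: Prkaa1, which encodes AMPKα1, had 0 and 82 reads in AMPKα1 KO and 15 and 0 in AMPKα1 WT libraries, and Prkaa2 had 40 and 71 reads in AMPKα2 KO and 87 and 62 in AMPKα2 WT libraries.

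Libraries held 2311242 to 3549156 reads. Proteasome genes took 0.511% to 0.579% of the reads on genes in the AMPKα1 libraries (11583 to 19330 reads) and 0.146% to 0.245% in the AMPKα2 libraries (3082 to 6818 reads). The 10 most abundant APSs took 16.7% to 22.3% of all reads in AMPKα1 and 40.1% to 50.5% in AMPKα2, where a ribosomal RNA site led every library. Scaling factors (TMM) accordingly were 1.53 to 2.14 and 0.403 to 0.624, so no level was compared between the models, and only the make-up within each library is set side by side. The AMPKα1 libraries stood apart in another way. Of the proteasome APSs with at least 20 reads in 1 KO library, 27 of 82 (32.9%) had 0 reads in the other, and the same held for 11 of 70 (15.7%) between the AMPKα1 WT libraries. No proteasome APS did so between the AMPKα2 KO libraries (0 of 47) or the AMPKα2 WT libraries (0 of 51). Over all APSs the shares were 51.3%, 25.4%, 0.728% and 0.61%. All 12 skeletal muscle markers were read in every library, at 6.88% to 17.2% of the reads on genes.

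Most proteasome genes were read at a single dominant 3′ end. Of the 44 genes, 32 (72.7%) had more than 1 APS, against 66% of all protein coding genes, with 3.14 and 3.69 APSs per gene. Psme4 had 15 APSs and Psmd1 had 12. By GENCODE release M21 (GRCm38), the APS with the most reads lay in the 3′ UTR in 25 genes and within 2 kb past the last exon in 12, by 1 to 5 bases in all 12. In 4 genes it lay in a coding exon and in 2 in an intron. The only APS of Psma8, the testis form of an alpha subunit, was antisense to it. The hexamer AATAAA, the canonical polyadenylation signal, was searched in the 30 transcribed bases that end at the site. It was found at 15 of 29 most used sites with such a window (51.7%), against 51.6% over all protein coding genes, and its variant ATTAAA at 3 more. The signal began 12 to 29 bases before the base of the site, with a median of 20.5, over these 18 sites.

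The windows below end at the most used sites of some of the genes compared below, in the 3′ UTR, 5′ to 3′ on the transcribed strand, from GENCODE transcripts, with the most upstream AATAAA in capitals. The genes shown are ones whose most used site had this signal. Psmb3 and Psmd4, also compared, are left out: their most used sites lay past the annotated transcript and, without either hexamer, in a coding exon. Not all reads of the genes shown lay at these ends. In the second AMPKα1 KO library, Psmd6 had 29 reads at the site shown and 34 at a coding exon site.
Psmd6, chr14:14112184-14112213, minus strand: cagcatcaAATAAAtatgtcatttgtttct
Psmb4, chr3:94884323-94884352, minus strand: tgtaaAATAAAtcagtcgtttgaagtgttc
Psmb5, chr14:54614119-54614148, minus strand: tggctatAATAAAtaatagtacctctttca
Psmb7, chr2:38588045-38588074, minus strand: gctcaattaaAATAAAtaaataaaaagaca
Psmb10, chr8:105935741-105935770, minus strand: gaatgagggtgAATAAAtccgggaaacaca
Psme4, chr11:30880330-30880359, plus strand: attttaaaAATAAAaaagaacatcaataaa

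Sites inside coding exons carried a large share of the proteasome reads. They held 27 of 138 APSs (19.6%, against 10.2% over all protein coding genes). In the AMPKα1 libraries these sites took 14.6%, 18.8%, 16.7% and 15.0% of the proteasome reads (KO, KO, WT, WT), and in the AMPKα2 libraries 24.4%, 27.3%, 24.2% and 21.7%. Over all protein coding genes the shares were 3.88% to 5.25% and 10.8% to 15.2%. The KO and WT libraries overlapped in AMPKα1, while both AMPKα2 KO libraries lay above both AMPKα2 WT libraries, for the proteasome genes and for all genes alike.

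Psma4, Psma7, Psmd4 and Psmd7 had their most used site inside a coding exon. The 30 bases that follow each site, printed below, include the stop codon, so these sites lay near the end of the coding sequence. Of the 10681 coding exon reads in AMPKα1, these sites held 2139, 3870, 321 and 1671 (in the order named). Of the 4836 in AMPKα2, they held 849, 602, 555 and 708. Psma4 and Psma7 are alpha subunits, Psmd4 is a ubiquitin receptor and Psmd7 is the partner of the deubiquitinase Psmd14. The sequences below are the 30 bases of the transcript that follow each site, with the longest run of A in capitals, and are shown because poly(A) selection and priming can also act on A within a transcript. Whether they did so here was not tested.
Psma4, chr9:54957761-54957790, plus strand: AAAAAgaacagagagaaaaggataaataga
Psma7, chr2:180036479-180036508, minus strand: aaagaagaagcAAAAgaaagcatcttgatg
Psmd7, chr8:107580873-107580902, minus strand: gAAAAAggagaaaaagtaaatggtgtagct
Psmd4, chr3:95032797-95032826, minus strand: agagAAgaagtgagaccggagggaggggta
By the usual definition of an A rich stretch (7 A in a row, or 8 A within 10 bases), 6 of 23 coding exon sites with such a window had one (26.1%), against 16.9% of coding exon sites over all protein coding genes. Those of Psma4 and Psmd7 met it, and those of Psma7 and Psmd4 did not.

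Some sites were read in 1 model only. No AMPKα1 library had a read at 16 of the 138 APSs (11.6%). An APS is listed only with 16 or more reads over the 8 libraries, so these sites entered through their AMPKα2 reads alone. Of these 16 sites, 11 lay in coding exons, 3 in introns and none in a 3′ UTR. Over all protein coding genes 11.4% of the APSs had this pattern, near the share of the proteasome genes, and 43.8% of those lay in coding exons. The reverse pattern held for 5 proteasome APSs (3.62%, against 10.4%). None of the 9 coding exon sites without AMPKα1 reads for which a window could be read was followed by an A rich stretch. Such a stretch was also rare at sites of this class over all protein coding genes (51 of 1722, 2.96%). Its absence at 9 sites therefore does not set the proteasome genes apart.

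Psmd1, a large scaffold subunit of the regulatory particle, had the most reads at a site of this kind. An intronic APS on chromosome 1 at 86087426 had 0 reads in each of the 4 AMPKα1 libraries, which hold 537 to 861 Psmd1 reads. In AMPKα2 it had 305 and 300 reads in the KO libraries against 524 and 444 in WT. It made up 73.0% (95% Wilson interval 68.5% to 77.0%) and 48.9% (44.9% to 52.8%) of the Psmd1 reads in AMPKα2 KO, and 58.8% (55.5% to 62.0%) and 65.4% (61.7% to 68.9%) in AMPKα2 WT. The KO and WT libraries overlapped. The intervals cover counting error only, since the reads passed through PCR and carried no identifier of the original molecule. With this site, Psmd1 was the most read proteasome gene of the AMPKα2 model (13.2% of the proteasome reads) and ranked 10 in AMPKα1 (4.27%). Without it, Psmd1 made up 4.07% to 6.2% of the remaining reads in AMPKα2 and 3.80% to 4.84% in AMPKα1, and the ranges overlapped.

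Psmd2, the other large scaffold subunit, had few AMPKα1 reads at a coding exon site on chromosome 16 at 20651832, with 0, 0, 5 and 0 reads in the AMPKα1 libraries (KO, KO, WT, WT) and 43, 100, 137 and 62 in the AMPKα2 libraries. Its most used end, 2 bases past the annotated transcript, took 89.7% to 100% of its reads in AMPKα1 and 37.2% to 53.0% in AMPKα2. For 24 proteasome genes with more than 1 APS and at least 16 reads in every library, the share at the most used site was lower in each AMPKα2 library than in each AMPKα1 library for 10 (41.7%), against 32.2% over all protein coding genes. Within a model, this share did not overlap between KO and WT for 11 of 28 genes in AMPKα1 (39.3%, against 32% over all genes) and for 8 of 25 in AMPKα2 (32%, against 37%).

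**Figure D1:**
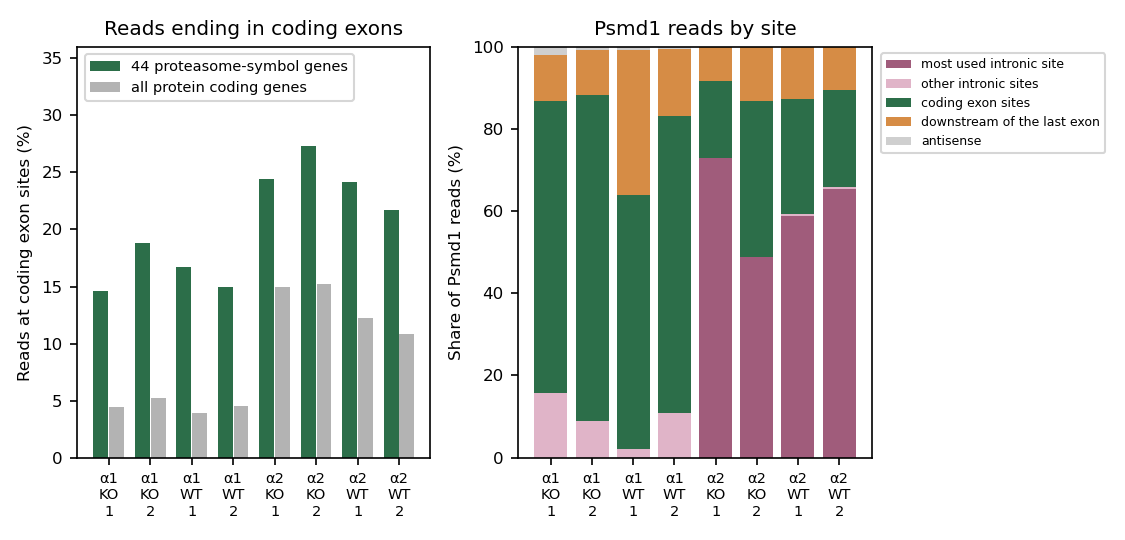
Left, share of reads (%) at sites inside coding exons in each of the 8 libraries, for the 44 proteasome-symbol genes and for all protein coding genes. Right, Psmd1 reads of each library by kind of site (%), where the most used intronic site takes 48.9% to 73.0% in the AMPKα2 libraries and none in AMPKα1.

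The make-up of the proteasome reads differed between the models. The core particle took 50.6% and 44.3% of the proteasome reads in AMPKα1 KO and 44.6% and 38.4% in AMPKα1 WT. It took 33.8% and 31.7% in AMPKα2 KO and 34.5% and 34.9% in AMPKα2 WT. The genotypes overlapped in AMPKα1, and in AMPKα2 both KO libraries lay below both WT libraries. The regulatory particle took 40.8% to 50.3% in AMPKα1 and 55.8% to 59.1% in AMPKα2. The intronic site of Psmd1 counts toward the regulatory particle. Without its reads, the core took 37.5% and 33.6% in AMPKα2 KO and 37.4% and 38.8% in AMPKα2 WT, so these genotypes overlapped. The AMPKα2 values then also overlapped with AMPKα1 (38.4% to 50.6%). The regulatory particle took 50.9% to 56.6% without these reads, still above each AMPKα1 library. The alpha ring moved with the model (23.7% to 27.0% against 17.6% to 18.9%), as did the non-ATPase subunits (25.9% to 32.7% against 41.8% to 45.1%), and neither overlapped without the Psmd1 site (alpha ring 19.1% to 20.6% and non-ATPase subunits 35.3% to 41.9% in AMPKα2). With the Psmd1 site in the total, the ATPases (14.4% to 17.6% against 12.7% to 14.0%) and the constitutive beta ring (14.6% to 23.8% against 12.5% to 16.3%) differed less, and the beta ring overlapped. Their shares without this site are not given, so a separation of the ATPases may depend on it.

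**Figure D2:**
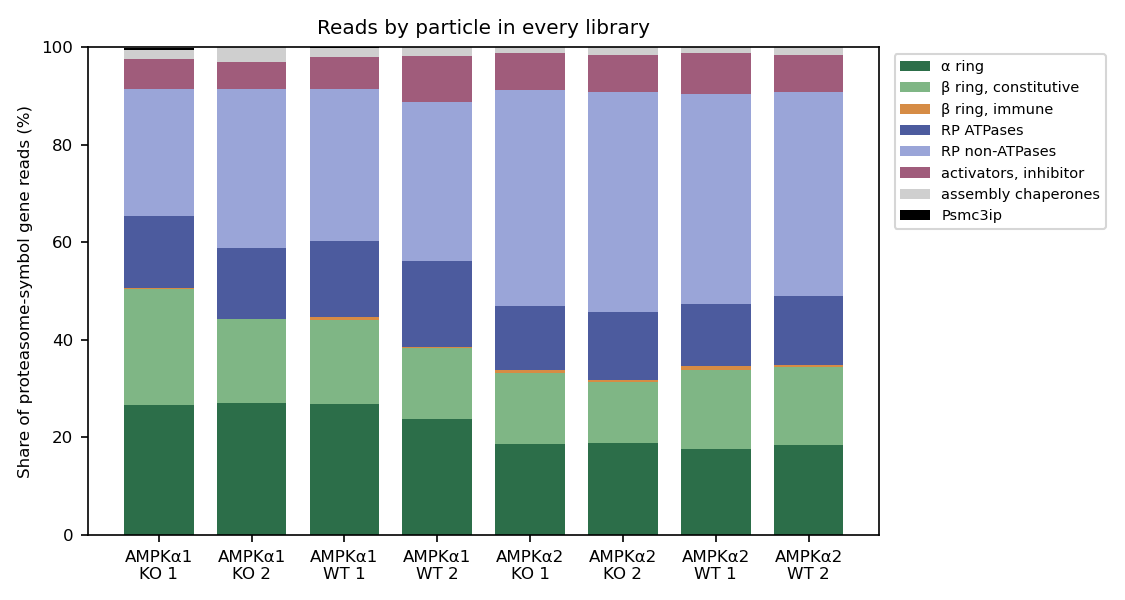
Share of the reads of the 44 proteasome-symbol genes (%) by particle in each library, with RP for regulatory particle and each bar adding up to 100%. The core (its rings and Psmb10) takes 38.4% to 50.6% of the reads in the AMPKα1 bars and 31.7% to 34.9% in the AMPKα2 bars.

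WTTS-seq gives 1 read per transcript end, so reads were compared between genes without division by length. Mean levels over the 8 libraries, in CPM (the reads of a gene relative to the scaled library size, TMM), pool both models and are given with the order within each model. Psma7 led the alpha ring (193 CPM) and Psma8 was lowest (1.19), in either model. Psmb1 had the highest mean of the beta ring (204) and led in AMPKα2, whereas Psmb3 led in AMPKα1, and Psmb2 was lowest in both (11.4). Among the ATPases, Psmc3 had the highest mean (116) and led in AMPKα2, while Psmc1 had the most reads in AMPKα1 (2994) and the fewest in AMPKα2 (257). Psmc4 had the lowest mean (51.5). Among the non-ATPase subunits, Psmd1 had the highest mean (317) and led in AMPKα2, and Psmd8 led in AMPKα1. The mean of Psmd1 includes its intronic site. Without that site its AMPKα2 reads were 113 and 314 in KO and 367 and 235 in WT, in place of 418, 614, 891 and 679. A mean without the site is not given, so the first place of Psmd1 may depend on it. Psmd13 had the lowest mean (21.8), and Psmd14 the fewest reads in AMPKα1. Psme4, an activator that caps the core, led the activators in both models (176), and Psme2b was lowest (6.14). Of the chaperones, Psmg2 had the highest mean (20.1) and led in AMPKα1, with Psmg3 ahead of it in AMPKα2 (72 against 65 reads), and Psmg4 was lowest in both (1.76). Subunits that the assembled core holds in equal number spanned a wide range: within the constitutive beta ring, the share of proteasome reads ran from 0.665% (Psmb2) to 7.39% (Psmb3) in AMPKα1 and from 0.127% (Psmb2) to 6.17% (Psmb1) in AMPKα2.

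Psmb3, a beta subunit without catalytic activity, showed the widest contrast in rank. It held 1943 and 1504 reads in AMPKα1 KO and 247 and 1171 in AMPKα1 WT, and ranked 3 among the 44 genes. In AMPKα2 it held 14 and 9 reads in the KO libraries against 37 and 32 in WT, and ranked 32. Psme1, a subunit of the interferon-inducible activator, was the counterpart, with 15 to 76 reads per library and rank 38 in AMPKα1, and 70 to 158 reads and rank 17 in AMPKα2. As a share of all protein coding reads, 15 of the 44 genes (34.1%) were higher in every AMPKα1 library than in every AMPKα2 library, against 28.2% of protein coding genes, and 3 (6.82%) were lower, against 6.49%. The 3 were Psmd1, Psmd2 and Psme1.

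**Figure D3:**
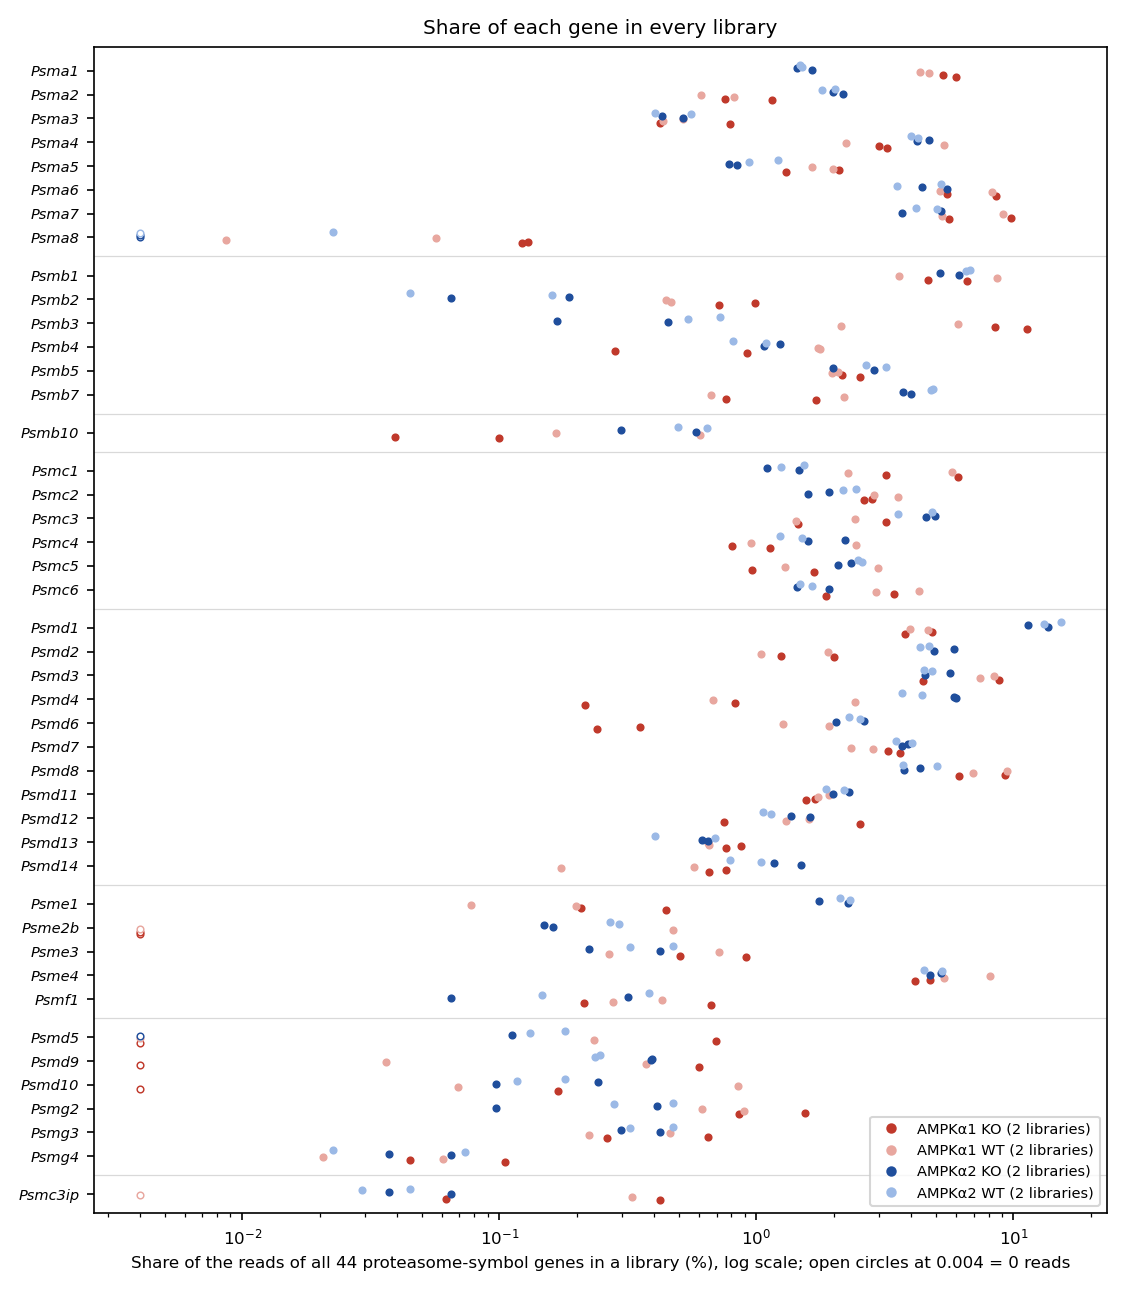
Share of each gene in the reads of the 44 proteasome-symbol genes (%, log axis) in every library, in blocks by role, with open circles for libraries with 0 reads. Psmb3 lies higher in every AMPKα1 library and Psme1 lies higher in every AMPKα2 library.

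In the AMPKα1 model, no proteasome gene was called between KO and WT mice. In edgeR's quasi-likelihood test at a Benjamini-Hochberg adjusted p under 0.1 over 13941 genes, 0 of 44 members and 0% of all genes passed, so the absence of calls is no statement about the proteasome. At an unadjusted p under 0.05, 2 members passed (4.55%, against 4.21% of all genes), Psmb4 and Psmd6. The biological coefficient of variation was 104% in this model and 26.2% in AMPKα2. The median log2 fold change (KO over WT) of the 44 genes was −0.11, against −0.03 over all genes, with 19 genes above and 25 below 0. Library totals in place of TMM gave 0.09 and 0.22, so the sign of the median rested on the scaling. The KO and WT values did not overlap, with KO higher, for 4 genes (9.09%, against 14.2% of all genes) and, with KO lower, for 8 genes (18.2%, against 18.1%). In bulk muscle, fewer cells of a type and less RNA per cell cannot be told apart.

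Psmd6, a non-ATPase subunit of the lid, had the largest contrast relative to its error. It had 41 and 63 reads in AMPKα1 KO and 222 and 246 in AMPKα1 WT, or 6.43 and 9.25 CPM against 64.1 and 37.9 CPM. Both KO libraries lay below both WT libraries. The log2 fold change was −2.72 (SE 0.61), with an edgeR adjusted p of 0.763 and an unadjusted p of 0.00377. Its share of the reads of the 11 non-ATPase subunits, which needs no scaling between libraries, was 0.923% (0.681% to 1.25%) and 1.09% (0.851% to 1.39%) in KO, and 6.17% (5.43% to 7%) and 3.89% (3.44% to 4.40%) in WT. In AMPKα2 the same share was 4.62% and 5.79% in KO and 5.84% and 5.49% in WT, and KO and WT overlapped. At its 3′ UTR site, whose window is printed above, AMPKα1 KO had 41 and 29 reads and AMPKα1 WT 218 and 246 (log2 fold change −3.41, SE 0.78, edgeR adjusted p = 0.543). DESeq2, which called 0.847% of the genes in this model and 1 member (2.27%), gave −2.67 for the gene with an adjusted p of 0.0943. Over the 14 settings run, the edgeR or DESeq2 adjusted p of Psmd6 lay between 0.0708 and 0.984. One of its sites is on a list that the study drew from the same libraries, so these values are not independent evidence.

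Psmb4, a beta subunit needed for the last step of core assembly, had 24.8 and 7.34 CPM in AMPKα1 KO and 58.9 and 51.5 CPM in AMPKα1 WT. The groups did not overlap (log2 fold change −1.83, SE 0.69, edgeR adjusted p = 0.763). Psme4 had 111 and 124 CPM in KO and 179 and 240 CPM in WT (−0.86, SE 0.39, edgeR adjusted p = 0.763). Psmd4 had 5.80 and 21.6 CPM in KO and 80.5 and 20.2 CPM in WT, and overlapped (−1.89, SE 0.93). Its fold change was −0.57 without the first WT library and −3.17 without the second KO library. At its coding exon site, Psmd4 had 0 and 59 reads in KO against 206 and 56 in WT (−3.12, SE 1.84). At its 3′ UTR site it had 37 and 65 against 59 and 47 (−0.83, SE 1.20). Psme2b, a second copy of an activator subunit gene, rested on 1 library, with 55 reads in 1 WT library and 0 in the other 3.

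In the other direction, Psmb3 had 305 and 221 CPM in AMPKα1 KO and 71.3 and 180 CPM in AMPKα1 WT (log2 fold change 1.03, SE 0.53, edgeR adjusted p = 0.763). Psmb2, another beta subunit, had 19.3 and 25.7 CPM against 15.6 and 13.2 CPM (0.62, SE 0.64). Psmd14, the deubiquitinase of the lid, had 17.6 and 19.8 CPM against 5.77 and 17.1 CPM (0.67, SE 0.81). These 3 genes did not overlap between KO and WT. At the most used site of Psmb2, past the annotated transcript, KO had 68 and 53 reads and WT 36 and 84 (−0.50, SE 1.14). Its intronic sites had 55 and 74 reads against 18 and 2, and 0 and 48 against 0 and 0. At the most used site of Psmd14 the reads were 20 and 62 against 11 and 17 (0.94, SE 2.17). An intronic site held 90 of the 112 Psmd14 reads of the first KO library. Psme1 (0.92, SE 1.37) overlapped, and Psma8 (1.68, SE 2.38) was counted only at its antisense site, without overlap, with 21 and 23 reads in the KO libraries against 1 and 11 in WT.

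Of the catalytic subunits, Psmb5, which carries the chymotrypsin-like site, overlapped between the genotypes of AMPKα1, with 67.7 and 56.4 CPM in KO and 65.5 and 61.9 CPM in WT (log2 fold change −0.07, SE 0.42). Psmb7, which carries the trypsin-like site, had 45.8 and 19.8 CPM in KO and 73.3 and 19.8 CPM in WT (−0.54, SE 0.77). Psmb10, its immune counterpart, was rare, with 17 and 7 reads in the KO libraries against 70 and 32 in WT (−2.79, SE 1.43, edgeR adjusted p = 0.763), and the fold change was −1.45 without the first WT library and −3.59 without the first KO library. Psmb10 made up 5.50% (95% Wilson interval 3.46% to 8.63%) and 4.93% (2.41% to 9.83%) of the Psmb7 and Psmb10 reads in AMPKα1 KO. In AMPKα1 WT it made up 21.6% (17.5% to 26.4%) and 19.9% (14.4% to 26.7%). In AMPKα2 the shares were 12.8% and 7.41% in KO and 11.9% and 9.21% in WT, and overlapped. Once Psmb5 was added to the total, Psmb10 made up 2.29% (1.44% to 3.64%) and 1.33% (0.646% to 2.72%) in AMPKα1 KO. In AMPKα1 WT it then made up 12.7% (10.2% to 15.7%) and 5.68% (4.05% to 7.91%). The intervals of the WT libraries did not meet, so how closely these libraries agreed depended on the total. With 2 libraries against 2, no exact permutation test of such a share can give a two-sided p below 0.333. The 12 leukocyte markers in the table summed to 0.0142% and 0.0597% of the reads on genes in AMPKα1 KO and to 0.0274% and 0.0306% in AMPKα1 WT, with 2 or 3 markers at 0 per library (Cd3e among them in all but the second KO library). KO spanned WT in the marker sum, but single markers differed in direction. In the fit, 7 of the 11 markers tested lay above 0 and 4 below. C1qa had 47 and 101 reads in KO against 118 and 254 in WT, and Ptprc 1 and 223 against 4 and 5. The part of leukocytes in the Psmb10 values was not tested.

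By particle, the TMM-scaled sums of the regulatory particle, of the activators and of all 44 genes were lower in both AMPKα1 KO libraries than in both WT libraries, and for the first and the last this rested on the scaling. As a share of the reads on genes, the regulatory particle took 0.21% and 0.262% in KO and 0.238% and 0.291% in WT, and as a share of the proteasome reads 40.8% and 47% against 46.6% and 50.3%, and both overlapped. All 44 genes summed to 2685 and 2611 CPM in KO and 3343 and 2974 CPM in WT, and took 0.514% and 0.558% of the reads on genes against 0.511% and 0.579%, which overlapped. The activators and inhibitor summed to 166 and 148 CPM against 220 and 276 CPM, and did not overlap as a share of the reads on genes either (0.0317% and 0.0316% against 0.0336% and 0.0538%). The ATPases summed to 398 and 376 CPM in KO and 521 and 523 CPM in WT, and the non-ATPase subunits to 697 and 851 CPM in KO and 1039 and 973 CPM in WT. As a share of the reads on genes, the non-ATPase subunits took 0.133% and 0.182% in KO and 0.159% and 0.189% in WT, and overlapped. That share is not given for the ATPases, so their separation may rest on the scaling. The fitted log2 fold change was below 0 for 5 of 6 ATPases (median −0.62) and 8 of 11 non-ATPase subunits (median −0.28), and none passed the test. Over all genes tested, 48.9% lay above 0. The alpha ring summed to 717 and 705 CPM in KO and 899 and 705 CPM in WT, and 4 of its 8 genes lay above 0. The constitutive beta ring summed to 640 and 452 CPM in KO and 572 and 433 CPM in WT. Of the tissue markers, all 12 skeletal muscle markers lay below 0 (median log2 fold change −0.69), and all 4 adipocyte markers above 0 (0.86), with 0 calls. Their summed level was 61980 and 50770 CPM against 112876 and 65404 CPM for muscle. For adipocytes it was 310 and 1145 CPM against 425 and 297 CPM, which overlapped. Their part in the proteasome values was not tested.

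In the AMPKα2 model, edgeR called 39 genes higher and 32 lower in KO mice of 10552 tested (0.673%), and 0 of the 41 proteasome genes tested. DESeq2 called 0 of 44, and 0.562% of all genes. Psma8, Psmc3ip and Psmg4 had too few reads for the test. At an unadjusted p under 0.05, 2 members passed (4.88%, against 8.51% of all genes), Psmd4 and Psmb3. The median log2 fold change of the 41 genes was −0.03, against 0.00 over all genes, with 20 above and 21 below 0. Fold changes lay between −1.15 and 0.70. Values did not overlap, with KO higher, for 5 genes (12.2%, against 19.3% of all genes) and, with KO lower, for 10 genes (24.4%, against 20.3%).

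Psmd4 had 216 and 235 CPM in AMPKα2 KO and 162 and 145 CPM in AMPKα2 WT (log2 fold change 0.55, SE 0.23, edgeR adjusted p = 0.564). Psmd14 had 54.1 and 47.2 CPM against 38.4 and 30.9 CPM (0.52, SE 0.30), and Psmd12, a scaffold subunit of the lid, 58.8 and 54.7 CPM against 42.2 and 41.5 CPM (0.42, SE 0.28). Psmc4, an ATPase, had 57.6 and 89.2 CPM against 55.7 and 48.5 CPM (0.48, SE 0.30), and Psmd9, a chaperone of ATPase assembly, had 14.1 and 15.7 CPM against 8.65 and 9.71 CPM (0.70, SE 0.45). In all 5 genes both KO libraries lay above both WT libraries, and none passed the test. For Psmc4 the difference lay largely at a coding exon site, with 4 and 52 reads in KO against 2 and 4 in WT. At its 3′ UTR site the reads were 45 and 67 against 101 and 51 (log2 fold change −0.10, SE 0.36). For Psmd4, the log2 fold change was 0.70 (SE 0.34) at its most used site, which lay in a coding exon. At the 3′ UTR site of Psmd4 it was 0.15 (SE 0.35).

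Psmb3 had 16.5 and 6.75 CPM in AMPKα2 KO and 20 and 28.2 CPM in AMPKα2 WT (log2 fold change −1.12, SE 0.49, edgeR adjusted p = 0.567). Psmb7 had 145 and 150 CPM in KO and 176 and 192 CPM in WT (−0.33, SE 0.23), and Psmb5 had 103 and 79.5 CPM against 117 and 105 CPM (−0.30, SE 0.27). Psmb10 had 21.2 and 12 CPM in KO and 23.8 and 19.4 CPM in WT, and overlapped (−0.44, SE 0.42). Psmc2, an ATPase, had 57.6 and 77.2 CPM against 80.0 and 96.2 CPM (−0.39, SE 0.28). Psmd5, a chaperone, and Psme2b had at most 20 reads per library (−1.15, SE 0.90, and −0.85, SE 0.52). Summed over its 6 genes, the constitutive beta ring had 529 and 502 CPM in KO and 601 and 624 CPM in WT, the only particle of this model without overlap. The alpha ring (674 and 762 against 649 and 726 CPM), the ATPases (478 and 562 against 468 and 551 CPM) and the non-ATPase subunits (1602 and 1814 against 1594 and 1640 CPM) overlapped.

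**Figure D4:**
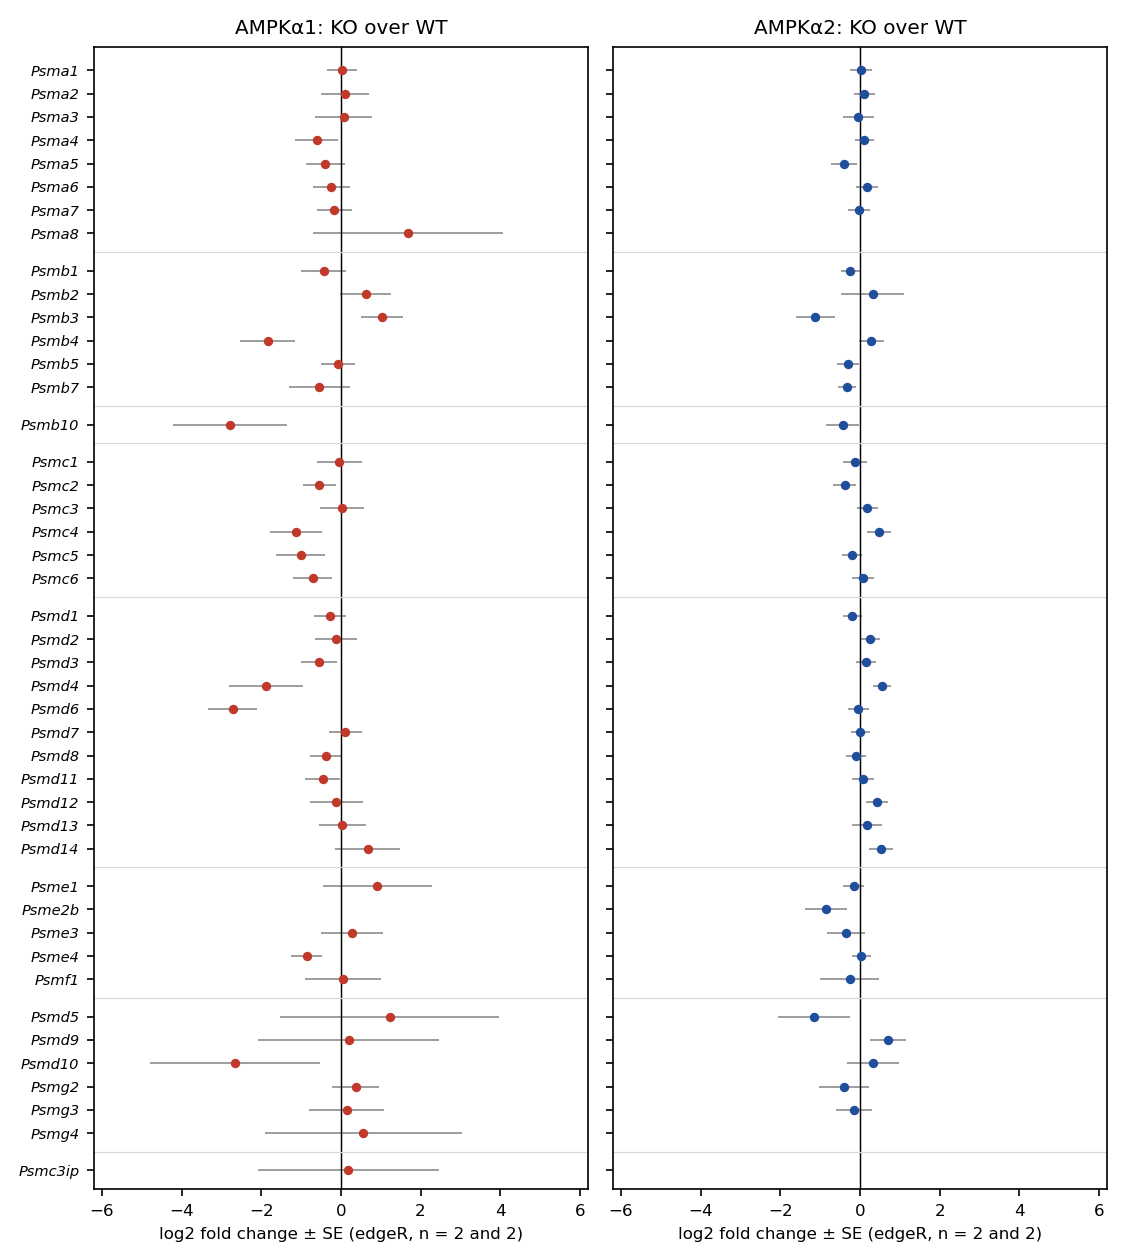
Log2 fold change (KO over WT) with its SE for each gene in the AMPKα1 model (left) and the AMPKα2 model (right), from edgeR with 2 KO and 2 WT libraries, in blocks by role. Psme2b is left out on the left because both KO libraries had 0 reads, and errors are wider in AMPKα1, where Psmd6 lies at −2.72.

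At single APSs, 0 of 114 proteasome APSs tested in AMPKα1 were called (0.00454% of all APSs), and 0 of 86 in AMPKα2 (0.056%). At an unadjusted p under 0.05, 7 (6.14%, against 3.07% of all APSs) and 4 (4.65%, against 7.59%) passed. DESeq2 called 1 of 122 in AMPKα1 (0.82%, against 0.442%), the 3′ UTR site of Psmd6, and 0 of 133 in AMPKα2 (0.192% of all). In AMPKα2 the lowest p belonged to a coding exon site of Psma7 on chromosome 2 at 180039439, with 21 and 22 reads in the KO libraries against 10 and 6 in WT (log2 fold change 1.76, SE 0.53, edgeR adjusted p = 0.602). A coding exon site of Psmc4 on chromosome 7 at 28041823 had 4 and 52 reads in the KO libraries against 2 and 4 in WT (3.24, SE 1.05, edgeR adjusted p = 0.618), and its fold change rested on 1 KO library.

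The difference between the KO effects of the models was tested as an interaction over all 8 libraries. This test, and the fit of all 8 libraries named at the end, assumed the same spread in both models. Fitted apart, the models had biological coefficients of variation of 104% (AMPKα1) and 26.2% (AMPKα2). The interaction test in edgeR called 0 of the 44 members and 0.065% of 15378 genes. In it, 5 members (11.4%) had an unadjusted p under 0.05, against 6.98% of all genes. DESeq2 called 1.17% of all genes and 1 member (2.27%), Psmd6 (interaction 2.60, DESeq2 adjusted p = 0.0324). Psmd6 had the lowest p, with an interaction of 2.66 (AMPKα2 minus AMPKα1 on the log2 scale, edgeR adjusted p = 0.272). Psmb3 and Psmb4 had opposite signs of the fold change in the models, with interactions of −2.15 and 2.08 (edgeR adjusted p = 0.61 and 0.628), as did Psmd4 (2.43, edgeR adjusted p = 0.672). None of these passed the test.

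**Figure D5:**
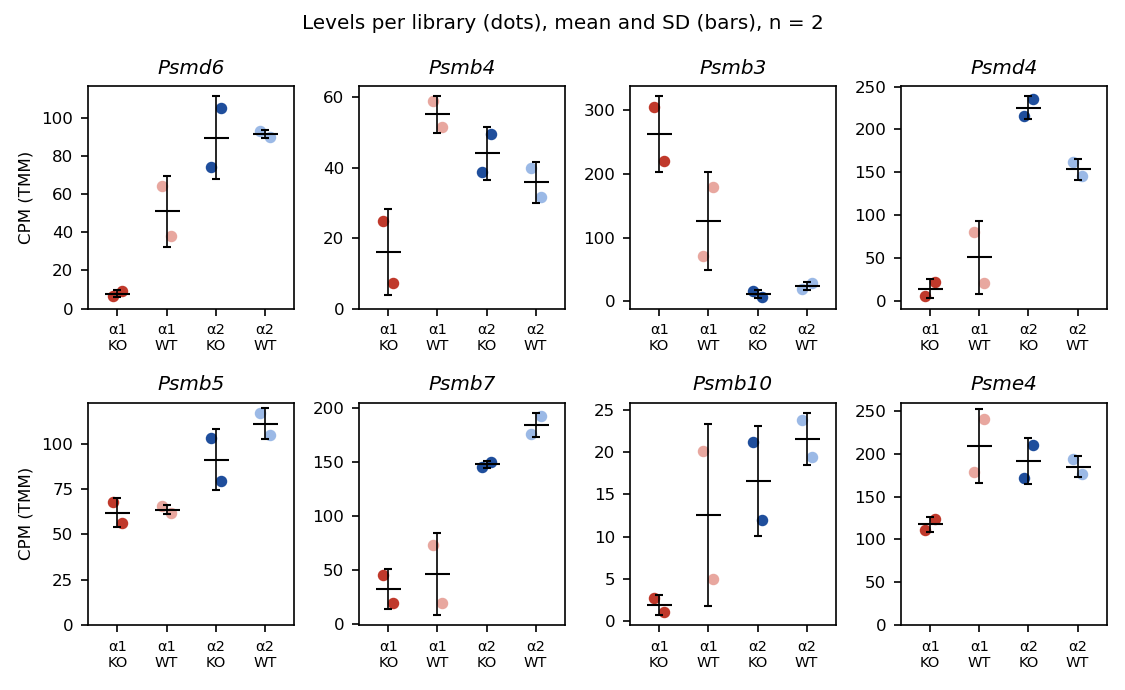
Level (CPM after TMM scaling over all 8 libraries) of 8 proteasome genes in each library (dots), with the mean and SD of each group (black, n = 2), where α1 and α2 stand for the AMPKα1 and AMPKα2 models. Psmd6 and Psmb4 of AMPKα1 KO lie below AMPKα1 WT without overlap, and the means of Psmb3 and Psmd4 lie in opposite order in the 2 models, although Psmd4 overlaps in AMPKα1.

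Genes that work with the proteasome under other symbols were also without a call. Of 26 such partners 22 were in the table and tested in both models, and 0 passed in either. Their median log2 fold change was −0.37 in AMPKα1 and 0.10 in AMPKα2. Nfe2l2, an oxidative stress factor, had the lowest p in AMPKα2, with 32 and 32 reads in the KO libraries against 29 and 17 in WT (0.96, SE 0.39, edgeR adjusted p = 0.533). Nfe2l1, the factor that restores proteasome gene expression when the proteasome is inhibited, had 0.01 (SE 0.47) and 0.27 (SE 0.25). Of 14 interferon and peptide loading genes, the 8 rows in the table gave 0 calls in AMPKα1 (8 tested, median −0.02) and 0 in AMPKα2 (4 tested, median −0.87). Marker lists of other cells also gave 0 calls, with medians in AMPKα1 and AMPKα2 of 0.67 and −0.24 for leukocytes, −0.06 and 0.42 for erythroid cells, and −0.44 and −0.19 for endothelium. In AMPKα2 the median was 0.23 for muscle and −0.34 for adipocytes.

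Promoters of RefSeq (GRCm38.p6, 250 bases before to 50 after the start) were matched for 36 of the 44 genes, with 38 entries. The core of the antioxidant response element, which factors of the Nfe2 family bind (TGACNNNGC or TGAGNNNGC, either strand), was present in 44.7% of these entries, against 27.8% of all promoters and 28.9% of those of protein coding genes. The GC box GGCGGG was present in 65.8%, against 35.3% and 45.6%. The CCAAT box was present in 34.2% (37.4% of all) and TATAAA in 7.89% (13.6% of all). Among the genes with the antioxidant core were Psmb3, Psmb5 and Psme4. No such core was found in the promoters of Psmd4 and Psmd6. A match describes letters in this window and is not a binding site.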

How the data were processed

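Per the study's methods, the authors sequenced WTTS-seq libraries on an Ion Torrent instrument, trimmed leading Ts, mapped the reads to the mouse genome (GRCm38.p5 per the labels), took the read end as the polyadenylation site, merged sites within 24 bases and assigned them to genes. The deposited values are raw counts of reads per APS and library, not normalized, and an APS has 16 or more reads when all 8 libraries are added. APSs without a gene, 9.33% of the reads, were left out of gene sums and library sizes.

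Here, counts were summed per gene by the table's own assignment, antisense APSs included. For each model, a separate fit of its 4 libraries in edgeR 4.0.16 (with limma 3.58.1, under R 4.3.3) compared KO with WT: TMM scaling, robust quasi-likelihood fit, genes or APSs that reach 16 reads when those libraries are added up, Benjamini-Hochberg adjusted p under 0.1 over all of them. SEs are approximate, being the fold change divided by the root of F. DESeq2 1.42.0 was an alternative, as were RLE scaling, library totals, other filters, all 8 libraries in 1 fit, sense APSs, the most used APS alone, an adjusted p under 0.05, and each library left out. The code was tested on simulated data. CPM used library sizes and TMM factors over all 8 libraries. A count of 3 reads, the smallest that the depth can show, corresponds to 0.44 to 3.53 CPM on this scale. For Psme2b in AMPKα1, with no KO read, the fold against 3 reads over the group was at least 24.3, and the median fold change stayed at −0.11 with this bound. Tables and intervals came from Python 3.11.15 (scipy 1.17.1, with pandas 2.3.3 on numpy 2.4.6), and plots from matplotlib 3.10.9. A site's location was read from the protein coding transcript with the longest coding sequence first.

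Named were Psmb5, Psmb7, Psmb10 and Psmd6 (one of its APSs is on the study's list), the 5 members of lowest p per model and direction, the most and least abundant per particle, and the partner of lowest p per model, of which that of AMPKα1 is not reported here. Psmd1, Psmd2, Psma7, Psmd7 and Psma4 were singled out for their sites after their values were seen. The members and lists were chosen with earlier results of these data known. Replicate numbers are shared between KO and WT in the labels but name different mice. The deviations of same-numbered libraries correlated at 0.0392 in AMPKα1 and 0.00311 in AMPKα2 (15378 genes), so they were not treated as pairs. The p-values measure the spread between libraries. No mouse was profiled in replicate libraries, so spread among mice and spread from library making cannot be told apart. Psmb6-ps2, a pseudogene, was not counted as a member, and reads that a copy shares with its parent gene could be split between them. Locations and sequences of intronic sites were not read from a genome here.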

Additional observations from a re-analysis of the deposited data

How the results depend on the processing

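With 2 mice per group, depth limits the rarer subunits, and in AMPKα1 the spread between libraries limits all of them. The 14 alternatives left the count of proteasome genes called in AMPKα2 at 0. In AMPKα1, DESeq2 called 124 genes (29 higher, 95 lower in KO) and a fit of all 8 libraries 83 (10 and 73), each with 1 proteasome gene, Psmd6 (2.27%, against 0.847% and 0.54% of all genes). DESeq2 called 1 proteasome APS there, and leaving out a library 0 to 1 (1 without the second WT library), in both cases the 3′ UTR site of Psmd6 (0.82% and 1.02%, against 0.442% and 0.488% of all APSs). The interaction called 1 proteasome gene with DESeq2 (Psmd6) and 0 to 2 with a library left out: Psmb4 and Psmd6 without the first AMPKα1 KO library (4.55%, against 3.72% of all genes), and Psmd6 without the second (2.27%, against 3.13%), so these are near the share over all genes. In AMPKα2 the genes called numbered 44 at an adjusted p under 0.05, 185 with library totals (82 higher, 103 lower), 397 without the filter (260 and 137), 6 with all 8 libraries, and 38 to 99 with a library left out (42 without the first KO, 38 without the first WT library). Without the filter, 1 proteasome APS was called, the Psmc4 site at 28041823 (0.752%, against 1.11% of all APSs). The AMPKα2 median of proteasome genes was −0.17 with library totals, where that of all genes was −0.19, and −0.07 to 0.10 with a library left out (0.10 without the first KO library). The causes were not tested.

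Of the refits of single fold changes, 322 kept direction and call, 2 gained a call (Psmd6 in AMPKα1) and 7 turned: in AMPKα1, Psmb2 (−0.38) and Psme1 (−0.35) at the most used APS alone, Psmb5 with library totals (0.18) and without the second KO library (0.03 in a range of −0.19 to 0.03 over the libraries left out in turn), and Psmb7 without the first WT library (0.69 in a range of −1.24 to 0.69), and in AMPKα2, Psmd6 at the most used APS (0.00) and without the first KO library (0.17 in a range of −0.30 to 0.17). Sizes moved more than directions: with a library left out, fold changes in AMPKα1 ran from 0.51 to 1.88 for Psmb3, −2.92 to −1.22 for Psmb4 and 0.10 to 1.70 for Psmd14, and in AMPKα2 from −1.84 to −0.53 for Psmb3.

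With the replicate number as a block, which does not pair these mice, 0 genes were called in AMPKα1 and 99 in AMPKα2 (54 higher, 45 lower), with 0 proteasome genes in either and 0 in the interaction, and 1 proteasome APS was called in AMPKα2, the Psmc4 site (1.16%, against 2.24% of all APSs, 519 in number).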
